A study of Mus musculus with 2 samples.

Results

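CpG-poor megabase blocks are the stretches of the autosomes in which RRBS read few CpGs. Each autosome was divided into blocks of 1 Mb, and a block was taken when the table listed between 50 and 250 CpG cytosines (rows) in it. By this rule 712 of the 2412 autosomal blocks with a listed row were CpG-poor, and they held 97165 of the 1756096 autosomal rows. The other blocks were 1666 with over 250 rows, which served for comparison, and 34 with under 50 rows. The rule used the number of rows and not their methylation. The cells were Xmas mESCs, a female mouse embryonic stem cell line of strain C57/Bl6 with a reporter on each X chromosome, grown by a modified culture method for 7 passages by the sample labels. The paper gives a longer culture, and which is right is not known here. FACS sorted XX cells, which show both reporters, away from XO cells, which have lost an X chromosome, and RRBS was performed on 1 library of each, so both groups come from the same line and culture method. There were no replicates, the table used here gives no read counts and its depth is unknown, so no difference between XX and XO was tested, and differences between cultures or libraries cannot be told apart from those of karyotype.

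In mammalian DNA most CpGs are methylated, and methylated cytosine mutates readily to thymine, which has left long gene-poor stretches with few CpGs. CpGs are dense in CpG islands, which usually stay unmethylated and often lie at gene starts. Maintenance of methylation after replication depends on DNMT1 with UHRF1, while DNMT3A and DNMT3B methylate new sites, and mESCs with 2 active X chromosomes are known for low methylation across the genome. RRBS cuts DNA with MspI at CCGG and sequences short fragments, so it favours CpG islands, and a block with few islands gives few rows.

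The label was checked against the GRCm38 reference. CpG-poor blocks held 5.57 ± 0.876 CpGs per kb (SD, n = 712 blocks; range 4.03 to 9.55), compared with 9.82 ± 2.51 (n = 1666; range 4.97 to 20) in blocks over 250 rows, so the label held for the average while the ranges overlapped. They had 377 ± 60.1 CCGG sites per block against 745 ± 269, and 71 ± 20 predicted MspI fragments of 40 to 220 bp against 160 ± 85.6. GC content was 38.4% ± 1.63 against 43.5% ± 2.91, and soft-masked repeats covered 39.7% ± 7.82 of the bases against 30.7% ± 6.74. Protein-coding gene bodies (GENCODE M21) covered 23.9% ± 27.1 of the bases against 48.9% ± 21.6. A CpG-poor block held 3.12 ± 7.20 protein-coding starts with a median of 1, and 244 blocks held none, whereas blocks over 250 rows held 11.1 ± 10.2 with a median of 8, and 11 held none. Of the rows themselves, 14.4% ± 18.8 per CpG-poor block lay within 1 kb of a protein-coding start against 42.4% ± 16.6, and 48.1% ± 22.2 lay in repeats against 10.4% ± 7.87.

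The sequence around single CpGs shows what these rows are. The stretches below are GRCm38, forward strand, from 30 bases before to 30 after 1 listed CpG near the middle of a block, with every CpG in capitals. The first 6 are isolated rows, meaning that no other CpG was listed within 200 bp, and the last is from the block with the most rows of all, for contrast.
chr1:35525875-35525936: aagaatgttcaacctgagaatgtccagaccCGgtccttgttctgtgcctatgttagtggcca
chr3:74058933-74058994: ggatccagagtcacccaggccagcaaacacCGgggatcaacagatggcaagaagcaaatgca
chr5:14523762-14523823: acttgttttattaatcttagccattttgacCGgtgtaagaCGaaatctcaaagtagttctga
chr6:132416258-132416319: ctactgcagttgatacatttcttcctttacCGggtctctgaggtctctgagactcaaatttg
chr1:142476775-142476836: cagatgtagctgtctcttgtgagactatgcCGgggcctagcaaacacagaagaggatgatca
chr12:46566583-46566644: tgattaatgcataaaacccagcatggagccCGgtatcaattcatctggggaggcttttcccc
chr10:80502852-80502913: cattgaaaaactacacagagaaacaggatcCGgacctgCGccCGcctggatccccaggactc
In each of them the central CpG is that of a CCGG site. The chr5 CpG lies in a repeat within Pclo, a scaffold protein of the presynaptic active zone, and the chr10 CpG lies in Onecut3, a homeobox factor. The other 5 lie in no protein-coding gene, between 52.2 kb (Gm8882) and 1164 kb (B3galt2) from the nearest protein-coding start. At the chr6 site the forward strand read 10.5% in XX and 69.2% in XO cells, and on the reverse strand these were 28.3% and 70%. The chr3 site had 44.4% in XX and 94.7% in XO cells on the forward strand but 60.7% and 61.9% on the reverse strand. The reason for this difference between the strands was not tested. At the chr1:35525875-35525936 site, read on the forward strand only, XX was higher, at 80% against 53.8%. At the contrasting chr10 site XX had 0% and XO had 4.02%.

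Over all rows, CpG-poor blocks were more methylated than blocks over 250 rows in both libraries, and XX cells were hypomethylated in every CpG-poor block. The block mean was 29.5% ± 8.17 (SD over 712 blocks) in XX cells, ranging from 8.10% to 49.7%, and 48.4% ± 13.1 in XO cells, ranging from 12.7% to 74.3%. XX minus XO was -19.0 points ± 6.42 and ranged from -36.3 to -1.17. Blocks over 250 rows had 18.1% ± 4.55 in XX and 26.6% ± 7.33 in XO cells, a difference of -8.50 points ± 3.15. The 34 blocks under 50 rows were higher than CpG-poor blocks, with 33.1% in XX and 57.8% in XO cells. XX was below XO in 712 of 712 CpG-poor blocks, which sets them apart from nothing, as 100% of the 2378 autosomal blocks with at least 50 rows had this direction. A difference of 20 points or more was found in 323 of 712 CpG-poor blocks (45.4%), beside 13.8% of all 2378 blocks and 0.3% of those over 250 rows.

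**Figure D1:**
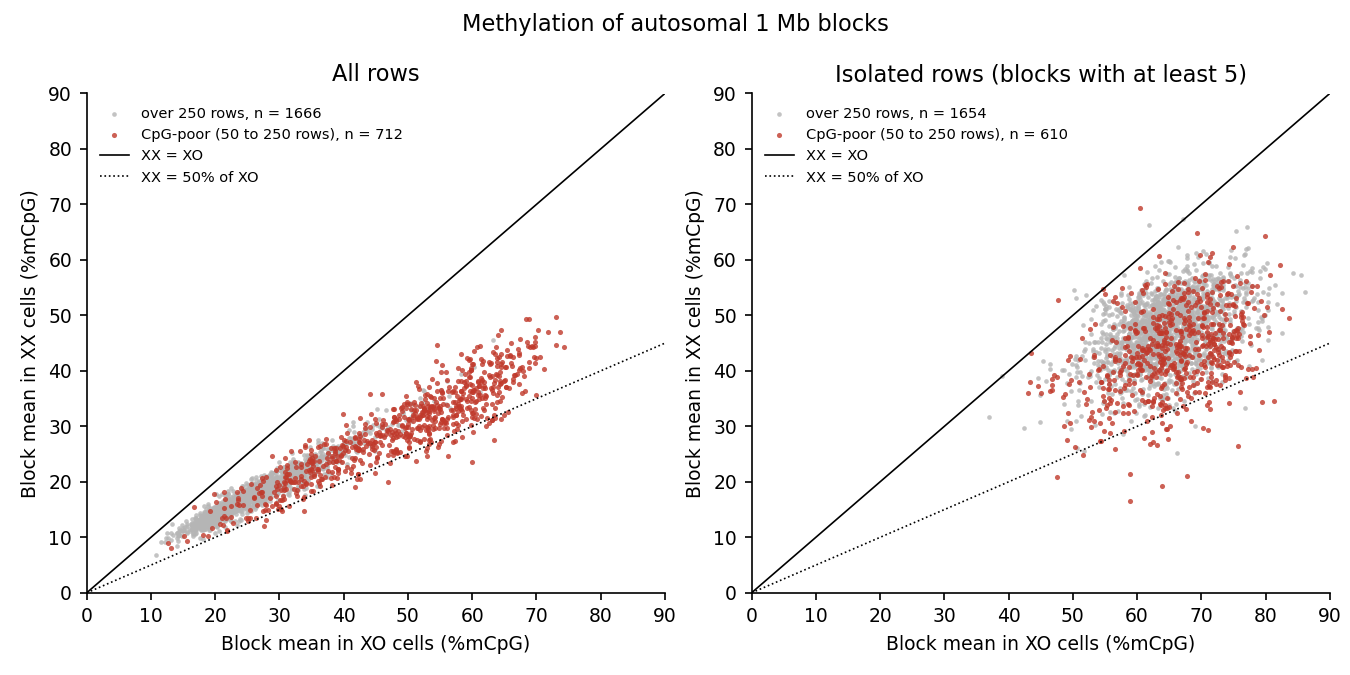
Mean methylation (%mCpG) of each autosomal 1 Mb block in XO cells (x axis) and XX cells (y axis), over all rows (left) and over isolated rows in blocks with at least 5 of them (right). Each point is a block, CpG-poor blocks are red and blocks over 250 rows grey, the solid line marks equal values and the dotted line XX at 50% of XO. On the left all 712 red points lie below the solid line and reach higher XO values than most grey points. On the right both colours overlap along the XO axis, and red points lie lower on average, at 43.5% against 47.2% in XX cells.

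CpG-poor blocks also kept less of the methylation of XO cells in proportion than blocks over 250 rows did. The share of XO methylation kept in XX cells, which is the XX mean as a percentage of the XO mean, was 60.9% over CpG-poor blocks and 68.0% over blocks over 250 rows, a difference of -7.17 points. Single CpG-poor blocks kept between 39.4% and 93.0%, with 25th and 75th centiles of 56.5% and 65.4%. A share under 50% was found in 36 of 712 CpG-poor blocks (5.06%), in 1.51% of all blocks and in 0 of the 1666 blocks over 250 rows. When each CpG-poor block was compared with blocks over 250 rows in the same 10-point range of XO methylation, which was possible for 562 blocks, the share kept was 4.35 points smaller (-4.35). Between 40% and 50% in XO cells, for example, 142 CpG-poor blocks kept 60.9% and 65 other blocks kept 65.0%. Between 50% and 60%, 219 CpG-poor blocks kept 60% and 20 others kept 65.2%.

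Forward and reverse rows were also averaged separately per block, which gave 2 readings of a block that do not stand in for replicates. The readings were not matched by CpG, so their differences also include those between the CpGs listed on each strand. All 712 blocks had at least 10 rows on each strand. The median absolute difference between the strands' block means was 3.52 points for XX and 4.34 points for XO, and across blocks the strands had a Spearman correlation of 0.770 in XX and 0.859 in XO cells. For the share kept, the strands differed by a median of 5.93 points with a Spearman correlation of 0.355. Block levels thus repeated between strands more closely than shares kept did, and single blocks at either end of the range of shares are given as values only. These correlations are across blocks of the same 2 libraries and carry no test.

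Isolated rows allowed blocks to be compared at CpGs without listed neighbours, although 69.9% of them lay outside all genes in CpG-poor blocks and 41.2% in blocks over 250 rows. There were 6025 of them in CpG-poor blocks, from 1 to 22 per block with a median of 8, and 99.6% were the CpG of a CCGG site. Their XO methylation was nearly the same in both kinds of block. In the 610 CpG-poor blocks with at least 5 isolated rows the mean was 65.5% ± 7.53 in XO cells, and in 1654 blocks over 250 rows it was 64.6% ± 6.28. In XX cells the means were 43.5% ± 7.64 and 47.2% ± 5.87. XX minus XO was -22.0 points ± 8.32 in CpG-poor blocks against -17.4 ± 6.44, and the share kept was 66.4% against 73.0%, a difference of -6.68 points. Within 10-point ranges of XO methylation the difference was -6.13 points over 610 blocks. An isolated difference of 20 points or more was found in 365 of 610 CpG-poor blocks (59.8%), beside 39.8% of all 2264 blocks with enough isolated rows, and a share under 50% in 32 (5.25%), beside 1.68%. The 610 CpG-poor blocks had a median of 9 isolated rows and the 1654 others 17.5. The SD of isolated shares over blocks was 11.5 and 8.82 points. XX was higher than XO at isolated rows in 3 of 610 CpG-poor blocks (0.492%), beside 0.398% of all blocks.

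The share kept was larger in blocks with more rows. At isolated rows it was 63.8% in blocks of up to 100 rows, 66.8% with over 100 and up to 150, 66.8% with up to 200 and 69.1% with up to 250. It continued beyond the limit of the rule, with 70.4% up to 500 rows, 73.4% up to 1000, 74.3% up to 2000 and 76.4% in larger blocks. From the first to the last of these 8 classes the XO mean at isolated rows went from 65.7% down to 61.6% and the XX mean from 41.9% up to 47.1%, so both levels moved with the gradient. The classes thus formed a gradient that ran across the limit of the rule. Just inside the lower limit, 11 blocks of 50 to 52 rows had means of 31.5% in XX and 56.3% in XO cells, and just outside it 5 blocks of 48 to 49 rows had 33.8% and 56.1%. At the upper limit, the 8 blocks at most 2 rows inside it had 19.7% and 29.7%, and the 2 blocks at most 2 rows outside it had 21.9% and 31.6%.

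**Figure D2:**
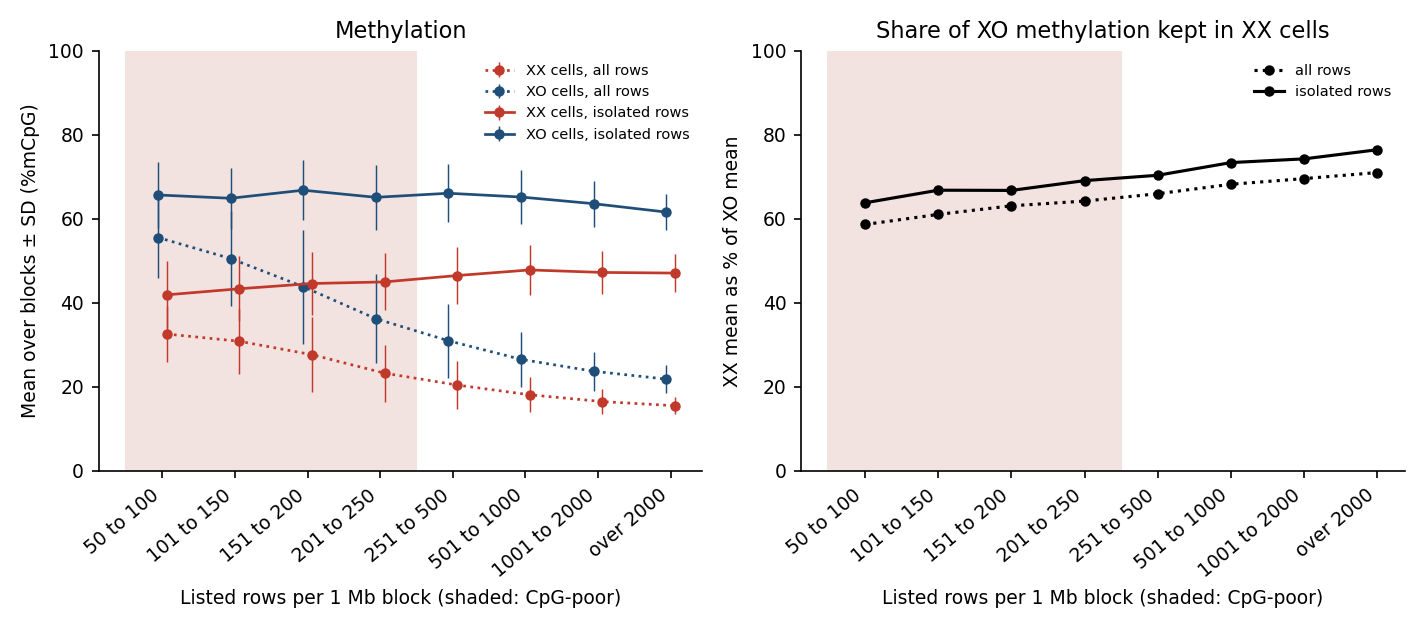
Methylation (left, mean over blocks ± SD, %mCpG) and the XX mean as a percentage of the XO mean (right) in classes of autosomal blocks by the number of listed rows. Red is XX, blue is XO, dotted lines are all rows, solid lines are isolated rows, and the shading marks CpG-poor blocks. Over all rows both levels decrease from left to right, whereas at isolated rows XO stays between 61.6% and 66.8% and the share kept goes from 63.8% to 76.4%.

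Single isolated rows covered the whole scale in both libraries. Of the 6025 isolated rows in CpG-poor blocks, 82.1% were lower and 16.8% higher in XX cells, and of the 31485 in blocks over 250 rows 75.3% were lower and 23.2% higher. In CpG-poor blocks the most common 10-point range was 30% to 40% in XX cells, with 16.2% of the rows, and 60% to 70% in XO cells, with 18.3%. Only 2.82% of these rows were at 90% or more in XX cells, compared with 14.5% in XO cells.

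**Figure D3:**
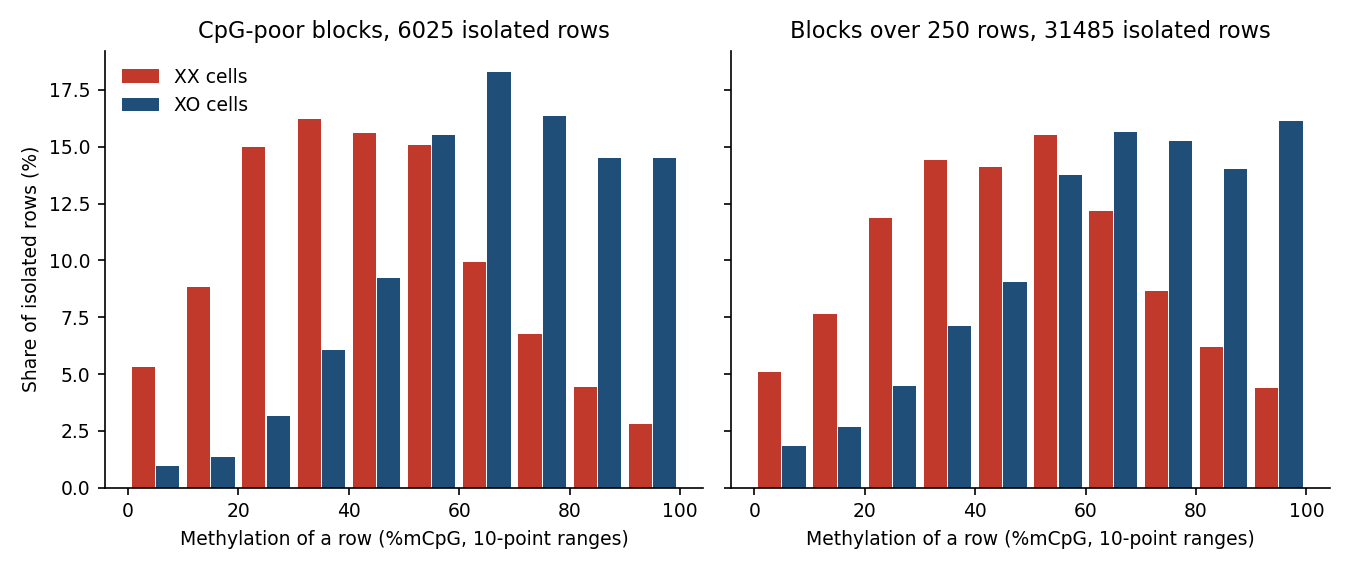
Share of isolated rows (y axis, percent) in 10-point ranges of methylation (x axis, %mCpG) in XX cells (red) and XO cells (blue), for CpG-poor blocks (left, 6025 rows) and blocks over 250 rows (right, 31485 rows). In CpG-poor blocks XX values centre on 20% to 60% and XO values on 50% to 100%, without a separate group of unmethylated rows.

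The spread between blocks lay within chromosomes and hardly between them. The pooled SD of block means within chromosomes was 8.23 points in XX and 13.2 points in XO cells, whereas the SD of the 19 chromosome means was 1.10 and 1.58 points. Chromosome means ran from 27.7% (chromosome 18) to 31.7% (chromosome 17) in XX cells and from 46.1% (chromosome 12) to 51.9% (chromosome 17) in XO cells. For the share kept by single blocks the SD was 7.17 points within chromosomes and 1.2 points between them. CpG-poor blocks made up between 14.3% of the blocks of chromosome 11 (17 of 119) and 41.0% of those of chromosome 14 (50 of 122). On 19 of 19 autosomes the share kept was smaller in CpG-poor blocks than in blocks over 250 rows, both over all rows and at isolated rows. The isolated difference ran from -10.3 points on chromosome 15 to -0.932 points on chromosome 11. The isolated XX mean was lower in CpG-poor blocks on 19 of 19 autosomes, by -5.76 to -0.676 points, while the isolated XO mean was lower on 7 and higher on 12, by -1.73 to 2.52 points.

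**Figure D4:**
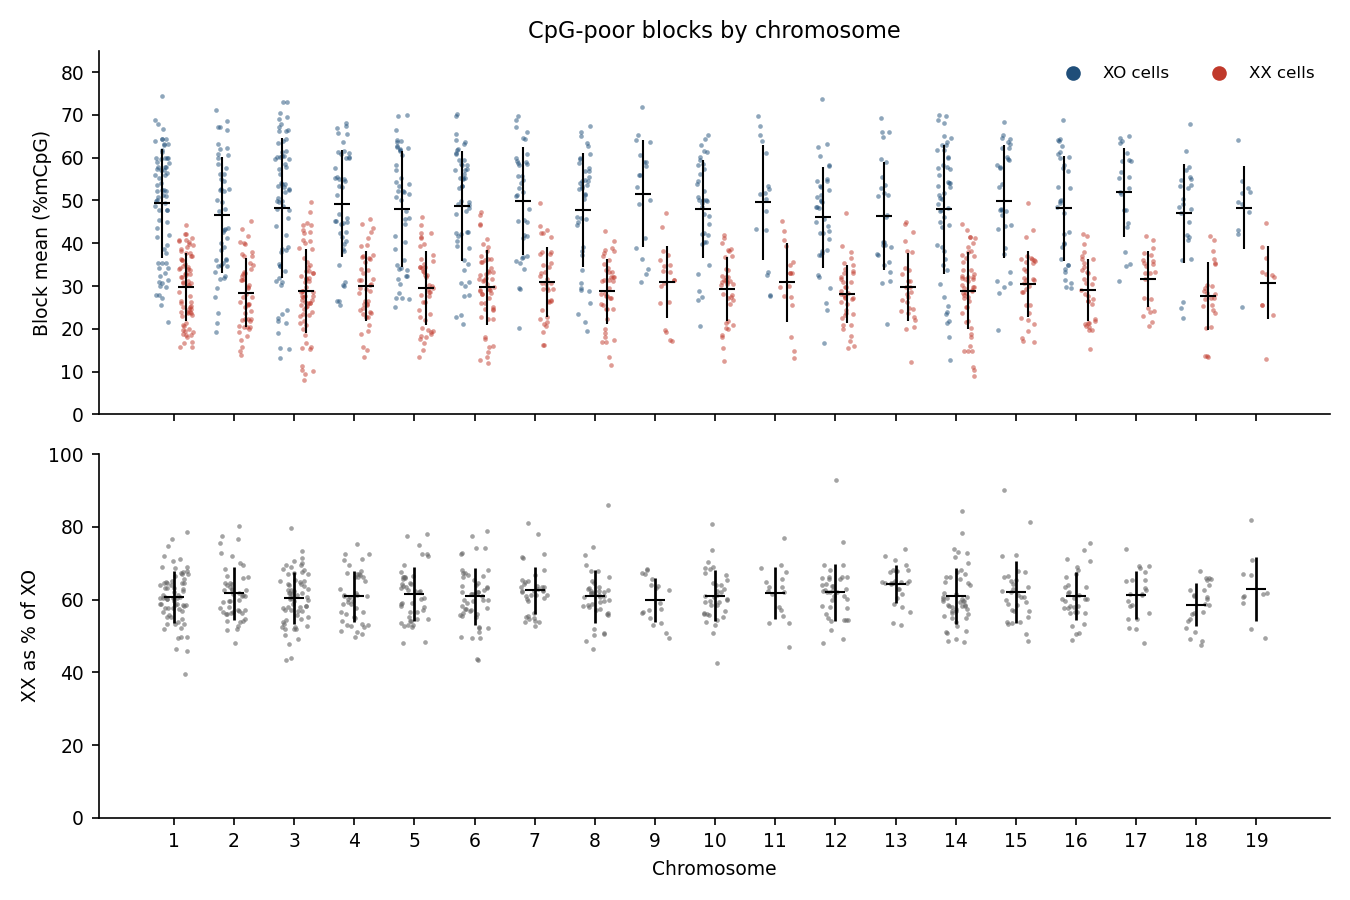
Block means (top, %mCpG, XO blue and XX red) and XX as a percentage of XO (bottom) for the 712 CpG-poor blocks by chromosome. Each point is a block, and the black bars are the mean and SD over the blocks of a chromosome. The blocks of a chromosome are spread widely, and the chromosome means differ little (27.7% to 31.7% in XX cells).

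Across pairs of blocks next to each other, levels and shares kept were hardly correlated. Among 377 pairs of neighbouring CpG-poor blocks the Spearman correlation was -0.0162 in XX cells, 0.0056 in XO cells and 0.0475 for the share kept, across pairs that share 2 libraries. The 712 blocks formed 335 runs, of which 172 were single blocks and 26 had 5 or more blocks, with 187 blocks in all. The longest was a gene-poor run of 12 blocks, chr15:13000000-24999999, with 6 protein-coding starts in 12 Mb. Its block means were 35.2% ± 6.84 in XX and 57.2% ± 6.99 in XO cells, compared with SDs of 8.17 and 13.1 over all CpG-poor blocks. It kept 61.6%, and its single blocks kept from 53.4% to 72.3%. At its 77 isolated rows the means of the blocks averaged 40.1% in XX and 64.0% in XO cells.

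Which rows a block happened to hold went with its level. Across CpG-poor blocks the Spearman correlation of XO methylation with the share of rows at promoters was -0.738, and with the share kept that measure had 0.197 (712 blocks of the same libraries). In the 334 blocks with at least 5% of their rows within 1 kb of a protein-coding start, the means were 24.7% in XX and 39.5% in XO cells with 62.5% kept, and in the 332 blocks with no such row they were 34.0% and 57.0% with 59.6% kept. At isolated rows the same groups had 43.5% and 65.1%, and 43.4% and 65.9%, so that they no longer differed by more than 1 point. Only 0.664% of the isolated rows of CpG-poor blocks lay within 1 kb of a protein-coding start. The comparison at isolated rows thus leaves out nearly all the rows by which the groups were formed.

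Pooled over rows, promoters of CpG-poor blocks were lowly methylated, with 8.46% (XX) and 10.8% (XO) over 17957 rows. Coding exons had 14.1% and 22.7%, introns 26.1% and 41.6%, rows outside all annotated genes 33% and 54.1%, and repeats 34.1% and 56.6%. Repeats kept 60.3% and rows outside repeats 63.3%, against 65.9% and 69.7% in blocks over 250 rows. The isolated rows showed the same order, with 64.4% kept in repeats (41.9% in XX, 65.1% in XO) and 69.0% outside them (45.8% and 66.4%), against 72.3% and 74.2% in blocks over 250 rows. Repeats held 55.4% of the isolated rows of CpG-poor blocks and 24.3% of the others. Outside repeats the difference in share kept between the kinds of block at isolated rows, taken from block means, was -4.25 points instead of -6.68. Reads from copies of a repeat can be assigned to the wrong copy, and the part this plays was not tested.

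In both kinds of block the level decreased with the local number of CpGs, and in CpG-poor blocks the share kept changed little up to 8 of them. Rows without another reference CpG within 50 bp had 36.3% in XX and 59.4% in XO cells in CpG-poor blocks, with 61.2% kept, and 34.5% and 52% in blocks over 250 rows, with 66.3% kept. Rows with 6 to 8 CpGs in that window, their own included, had 23.5% and 38.9% against 15% and 21.3%, keeping 60.5% against 70.4%. Rows with 13 or more, as in CpG islands, had 5.70% and 7.22% against 5.06% and 5.78%. Such dense rows were 7.12% of the rows of CpG-poor blocks and 23.8% of the others.

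**Figure D5:**
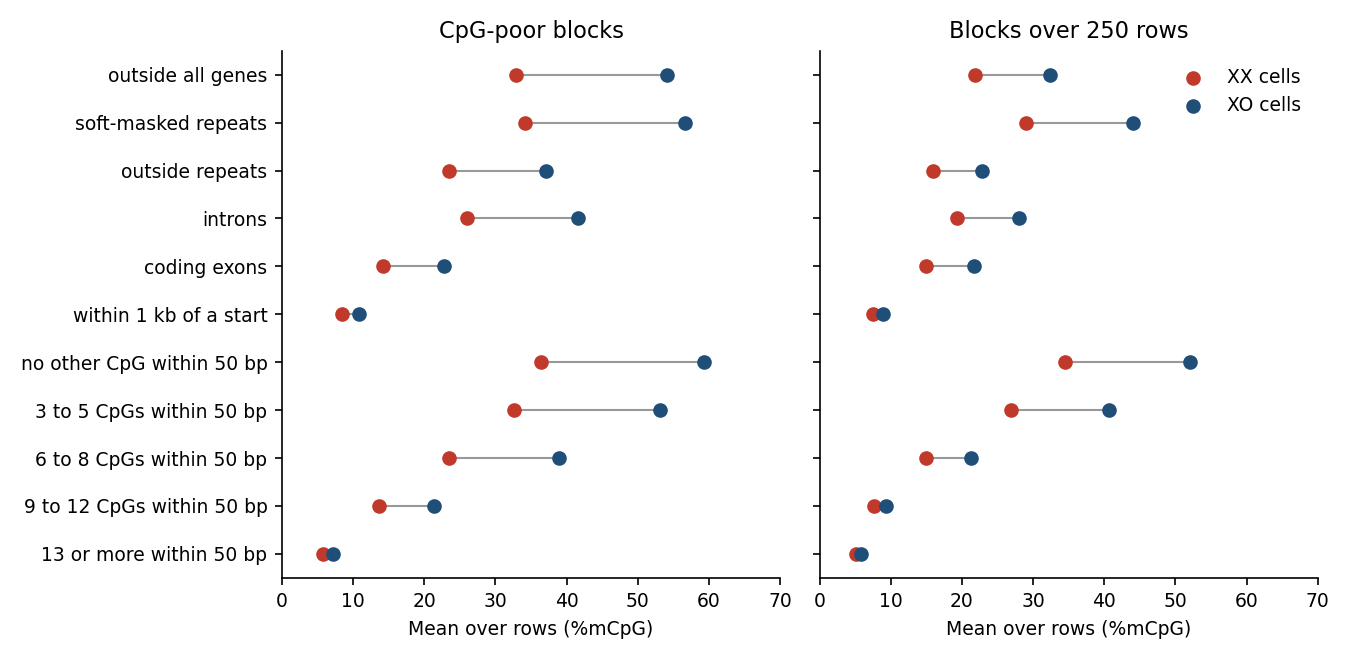
Mean methylation over pooled rows (x axis, %mCpG) in XX cells (red) and XO cells (blue) by annotation and by the number of reference CpGs within 50 bp of a row (its own included), for CpG-poor blocks (left) and blocks over 250 rows (right). Grey lines join the libraries. The gap is widest in repeats and at rows with few CpGs and nearly closes within 1 kb of starts and at rows with 13 or more CpGs, and at 6 to 8 CpGs it is wider on the left (23.5% and 38.9%) than on the right (15% and 21.3%).

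The gene content of CpG-poor blocks was of 3 kinds. The 244 blocks without a protein-coding start, some of which are crossed by gene bodies, had 33.9% ± 6.03 in XX and 57.1% ± 7.75 in XO cells and kept 59.4%. Of these, 178 (73.0%) differed by 20 points or more, beside 45.4% of all 712 CpG-poor blocks and 13.8% of all 2378 blocks. A further 30 blocks each held 5 or more olfactory or vomeronasal receptor genes, 670 in all, which encode the chemosensory receptors of the nose and are expressed there. These receptor clusters had 35.5% ± 6.52 in XX and 56.7% ± 10.8 in XO cells, kept 62.6%, and 18 (60%) differed by 20 points or more. They were as methylated as the blocks without a start although they held 804 protein-coding starts. The remaining 438 blocks had 26.6% ± 7.99 and 43.1% ± 12.7, kept 61.8%, and 127 (29%) differed by 20 points or more. At isolated rows the 3 kinds lay close together, with 43.3%, 44.0% and 43.5% in XX and 65.8%, 65.3% and 65.3% in XO cells. Of the 14 CpG-poor blocks with at least 30 protein-coding starts, 12 were receptor clusters.

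Of 20807 autosomal protein-coding genes, 2220 (10.7%) started in CpG-poor blocks. Their median length was 8.91 kb, shorter than the 18.7 kb of genes in blocks over 250 rows, but 85 genes over 500 kb were among them, compared with 130 in blocks over 250 rows. By family, 540 of 1087 olfactory receptor genes (49.7%) and 139 of 326 vomeronasal receptor genes (42.6%) started there. So did 35 of 50 genes of neuronal adhesion and axon guidance (70%), 17 of 33 numbered cadherins and protocadherins (51.5%), which join cells through calcium-dependent contacts, and 9 of 15 other very long genes (60%). Clusters of secreted, barrier and detoxification genes (Serpin, Cyp, Ugt, Defb, Krt and others) had 172 of 470 there (36.6%), and neurotransmitter receptors and ion channels 28 of 174 (16.1%). At the other end were 18 of 385 numbered Zfp genes (4.68%), 4 of 161 ribosomal, proteasome and respiratory chain genes (2.48%) and 3 of 194 developmental transcription factors (1.55%). These lists were chosen by symbol, and the counts describe position only.

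RRBS saw few of the receptor genes. No row lay in the bodies of 502 of the 540 olfactory receptor genes or of 106 of the 139 vomeronasal receptor genes in these blocks. Of the genes with at least 5 rows inside CpG-poor blocks, wherever they start, XX was lower in 7 of 7 olfactory and 16 of 16 vomeronasal receptor genes, and by 20 points or more in 5 and 10 of them, beside 25.5% of all 783 such protein-coding genes. Pooled rows of the vomeronasal genes had 35.9% in XX and 58.7% in XO cells. XX was lower in 39 of 39 neuronal adhesion genes, with a median of -15.8 points and 10 past 20 points, in 12 of 12 other very long genes (median -18.7, 4 past 20 points) and in 29 of 30 neurotransmitter receptors and channels (median -13.6, 8 past 20 points). Of the cadherins XX was lower in 16 of 18 (median -8.88, 4 past 20 points), and of the secreted and detoxification genes in 32 of 33 (median -19.8, 16 past 20 points). It was lower in 6 of 6 developmental transcription factors (3 past 20 points), 7 of 8 Zfp genes (2 past 20 points) and 1 of 2 housekeeping genes. Over all 783 genes XX was lower in 699, higher in 82 and equal in 2, with a median of -11.9 points.

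Among the genes of neuronal contacts, Cntn6, a contactin, had 26.0% (XX) and 54.8% (XO) over 30 rows, and Robo1, a Slit receptor of growing axons, had 20.7% and 35.6% over 245 rows. Pcdh9, a protocadherin, had 22.7% and 48.4% over 72 rows. Slitrk5, a synaptic adhesion protein, had 3.77% and 5.55% over 118 rows, with 2.63% and 1.88% over 83 rows within 1 kb of its start. The genes named so far thus ranged from 3.77% to 26.0% in XX and from 5.55% to 54.8% in XO cells. Among receptors and channels, Kcnma1, the BK potassium channel, had 29.8% and 56.2%, Gabrg3, a GABA-A receptor subunit, had 29.3% and 58.2%, and Gria2, an AMPA receptor subunit, had 27.1% and 29.2%. Meis2, a homeobox factor, had 42.5% and 64.7%, and Sox6 had 34.5% and 55.6%. The values in this paragraph are for rows inside CpG-poor blocks only. Those rows were 33 of the 200 in Meis2, 95 of 271 in Sox6, 133 of 268 in Kcnma1 and 21 of 131 in Gabrg3. Within 1 kb of its start Meis2 had 5.91% and 7.15% over 36 rows. XX was higher in 6 genes of these families. Cdh19, a cadherin, had 25.2% against 10% in XO cells over 7 rows, and Cdh11, a cadherin of mesenchymal cells, had 19.5% against 15% over 74 rows. Zfp462 had 11.2% against 6.64% over 79 of its 185 rows. Glrb, the beta subunit of the glycine receptor, had 3.84% against 0.479%, Rpl10l, a ribosomal protein gene, 9.49% against 8.75%, and Ugt8a, which makes galactosylceramide of myelin, 4.11% against 3.5%. Members of families were picked here after their values were seen.

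The 10 longest genes with at least 20 rows in CpG-poor blocks were lower in XX throughout. Values are for the rows inside CpG-poor blocks only, which for some genes are a part of those in the gene (61 of 138 for Cntnap2, 22 of 97 for Lsamp, 100 of 258 for Dlg2, 116 of 267 for Ctnna3 and 51 of 287 for Macrod2). Ptprd, a receptor tyrosine phosphatase of synapses, had 14.8% (XX) and 30.6% (XO) over 196 rows. Cntnap2, a neurexin relative near nodes of Ranvier, had 27.3% and 55.2% over 61 rows, Lsamp, a GPI-anchored adhesion protein, 21.7% and 40.9% over 22, and Nrxn3, a presynaptic neurexin, 23.8% and 38.1% over 113. Lrp1b, a lipoprotein receptor relative, had 32.2% and 57.4% over 177 rows, and Dlg2, a postsynaptic scaffold, 21.7% and 41.1% over 100. Fhit, a tumour suppressor at a fragile site, had 38.3% and 63.6% over 92 rows, Ctnna3, an alpha-catenin, 31.2% and 50.8% over 116, and Csmd1, a complement-regulating membrane protein, 18.6% and 29.2% over 200. Macrod2, which removes ADP-ribose from proteins, had the highest levels of the 10, with 42.1% and 74.7% over 51 rows. Their shares kept ran from 48.5% (Ptprd) to 63.9% (Csmd1).

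Macrod2 was also among the 5 largest differences of the 496 genes with at least 20 rows, at -32.6 points. The others were Pla2g4a, the cytosolic phospholipase that releases arachidonic acid, with 18.8% (XX) and 54.7% (XO) over 24 rows (-35.8 points), and Fam135b, with 33.9% and 67.7% over 35 rows (-33.9). Gm10295 had 29.4% and 63.0% over 31 rows (-33.6), and Csmd3, a relative of Csmd1, had 21.9% and 55.2% over 57 rows (-33.3). For Csmd3 the strands read 24.1% and 57.5%, and 19.4% and 52.7%, and for Pla2g4a 22.4% and 53.8%, and 15.2% and 55.6%, so the difference was present on both. Within 1 kb of the start, 13 rows of Csmd3 had 13.4% in XX and 54.2% in XO cells, 7 rows of Fam135b had 20% and 68.6%, and 31 rows of Gm10295 had 13.6% and 48.4%. Macrod2 had 0.452% and 2.31% over 91 rows there and Pla2g4a had no row.

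XX was lower in 438 and higher in 58 of these 496 genes. The 5 genes most raised in XX were measured mainly around their starts. Tacr3, the receptor of neurokinin B, had 29.6% (XX) and 14.1% (XO) over 25 rows (15.5 points), with 28.9% and 6.16% over 21 rows within 1 kb of its start. The forward strand carried this, with 37.3% and 10.1% over 17 rows, while 8 reverse rows had 13.2% and 22.7%, the opposite direction. Nox4, an NADPH oxidase, had 12.3% and 3.51% over 49 rows (8.83 points), and here the 32 reverse rows carried it, with 17.6% and 3.59%, against 2.36% and 3.36% over 17 forward rows. Lrrc3b had 14.6% and 7.63% over 45 rows, Svip, an inhibitor of ER-associated degradation, 10.7% and 3.79% over 34, and Atoh1, the basic helix-loop-helix factor of hair cells and granule neurons, 14.1% and 7.25% over 33, with XX higher on both strands in these 3. In XO cells each of the 5 had 14.1% or less.

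Only 4 CpG-poor blocks had at least 20 isolated rows, and these are the best measured at such rows. The block chr1:35000000-35999999, without a protein-coding gene, had 43.6% (XX) and 75.4% (XO) over 22 isolated rows (57.8% kept), and the block chr3:74000000-74999999, also without one, had 47.3% and 72.7% over 21 (65.1% kept). The block chr5:14000000-14999999, where Sema3e, Pclo, Gm9758, Speer4e and Gm10354 start, had 46.3% and 75.5% over 20 isolated rows (61.3% kept) but 18.1% and 27.3% over all 175 rows, 58.3% of which lay at promoters. The block chr6:132000000-132999999 held 22 starts, with bitter taste receptor genes (Tas2r) and salivary proline-rich protein genes (Prb1, Prpmp5, Prh1, Prp2). It had 43.4% and 61.6% over 20 isolated rows (70.4% kept). Isolated XO methylation thus lay within 61.6% to 75.5% in all 4, with or without genes.

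Of the 5 blocks with the largest differences over all rows, 3 held no protein-coding gene body. In chr1:142000000-142999999, without a protein-coding gene, 82 rows had 23.6% in XX and 60% in XO cells (-36.3 points), which was also the smallest share kept (39.4%; 35.4% on the forward and 45.2% on the reverse strand). In chr3:48000000-48999999, likewise without one, 88 rows had 27.6% and 63.4% (-35.8 points), and in chr14:38000000-38999999, where no protein-coding gene starts but gene bodies cover 63.1% of the bases, 71 rows had 35.7% and 70% (-34.2 points). In chr15:48000000-48999999, with the start of Csmd3, 72 rows had 31.4% and 64.5% (-33.1 points), and in chr6:26000000-26999999, without a protein-coding gene, 147 rows had 32.6% and 65.6% (-33.1 points). Isolated rows of these 5 blocks, 2 to 13 in each, were also lower in XX, by -44.8 to -24.5 points. The fewest rows (50) were found in 4 blocks, with 25.2% to 41.6% in XX and 48.3% to 64.7% in XO cells, and of these only chr11:91000000-91999999 held a protein-coding start, that of Kif2b, a kinesin.

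Further blocks were picked by share kept or gene number after the values were seen. Small shares were also found in chr10:72000000-72999999 with the kinetochore gene Zwint (20% in XX, 46.9% in XO), chr6:25000000-25999999 with Gpr37 and the telomere gene Pot1a (14.7%, 33.8%) and chr6:110000000-110999999 with Grm7, a metabotropic glutamate receptor (12.1%, 27.6%). The largest share, 93.0%, was that of chr12:46000000-46999999 with Nova1, a neuronal splicing regulator, where 213 rows had 15.5% and 16.7% and 66.7% of the rows lay at promoters. Similar blocks were chr15:43000000-43999999 with Rspo2, Eif3e, Emc2 and Tmem74 (17.9%, 19.8%), chr8:102000000-102999999 with Cdh11 (24.7%, 28.8%) and chr14:116000000-116999999 with the glypican gene Gpc6 (18.1%, 21.4%). In the Nova1 and Gpc6 blocks XX slightly exceeded XO on the reverse strand, and in the Cdh11 block on the forward strand. The Cdh11 block kept 101.6% over 90 forward rows and 62.2% over 63 reverse rows. At their few isolated rows, the Nova1 block had 50.5% and 70.4% over 6 rows (71.8% kept), the chr15 block 20.9% and 47.6% over 6 (43.8% kept), the Cdh11 block 27% and 71.6% over 3 (37.7% kept) and the Gpc6 block 47.2% and 59.7% over 5 (79% kept). The chr19:19000000-19999999 block with Rorb, a nuclear receptor, kept 81.9% over all 60 rows and 77.3% over 10 isolated rows. The block with the most starts, chr7:103000000-103999999, held 59, of which 50 were olfactory receptors, together with the beta-globin cluster (Hbb-bt, Hbb-bs, Hbb-bh2, Hbb-bh1, Hbb-y), and had 33.2% and 54.1% over 146 rows, with 53.9% and 74.6% over 10 isolated rows.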

How the data were processed

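RRBS libraries of FACS-sorted XX and XO Xmas mESCs were compared (1 each, not replicated). The authors deposited, per CpG cytosine, the percent of methylated reads (0 to 100). The submitters' processing notes name Bismark, bcl2fastq and mm10. Coverage minimums are not given in the sources used here. Of 1756096 autosomal rows, all but 50 lay on a CpG cytosine of GRCm38.p6. Genes were from GENCODE M21 and repeats were the soft-masked bases. No row was removed.

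Rows were averaged per 1 Mb block, and the mean and SD were taken over blocks. Isolated rows had no listed row of another CpG within 200 bp (the opposite strand of the same CpG was allowed), and an isolated block mean needed at least 5. Without replicates or depth, no test or interval was computed.

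Members, families and rules were chosen with earlier results of these data known. Blocks named were those with at least 20 isolated rows, the 5 largest differences, the fewest rows and the longest run. Genes named were, among those with at least 20 rows, the 10 longest, the 5 largest falls and the 5 largest rises, and genes starting in named blocks. Shown CpGs were those nearest a block's middle, on both strands where any were listed so. Alternatives concerned rows, strands, limits, borders, repeats, genes, local CpGs, chromosome ends, gaps, chromosomes, isolation distance, comparison blocks and thresholds. Code was tested on simulated data (Python 3.11.15, numpy 2.4.6, pandas 2.3.3).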

Additional observations from a re-analysis of the deposited data

How the results depend on the processing

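Of 529 values recalculated for 15 results under 43 settings, 508 stayed within 1.5 times the reported value and 0 reversed. Of these settings, 19 only left out 1 autosome each. A factor of 1.5 is also wide for a share kept of 60.9%, so this count is a weak check. Leaving out any autosome kept the share over CpG-poor blocks at 60.7% to 61.0% and the isolated difference from other blocks at -6.79 to -6.49 points. Over all settings the share kept was 59.8% to 63.7%, at isolated rows 63.8% to 69.6%, and smaller than in other blocks by -9.06 to -4.35 and by -8.46 to -4.25 points.

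The count of 36 blocks under 50% kept was 22 with 1 value per CpG, 55 on the forward and 61 on the reverse strand, 75 outside repeats and 1 among blocks of over 150 rows, and with limits of 40% and 60% it was 1 and 303. The count of 323 blocks past 20 points was 31 in blocks of over 150 rows, 524 at rows with under 3 CpGs within 50 bp, and 646 and 20 with limits of 10 and 30 points. XX exceeded XO in 1 block on the forward strand, 3 on the reverse strand, 5 outside repeats and 1 outside protein-coding genes, against 0 over all rows. The difference of -7.17 points in share kept became -4.35 for blocks of over 150 rows, -4.42 at rows with under 3 CpGs within 50 bp and -4.35 within ranges of XO methylation. The isolated difference of -6.68 became -4.25 outside repeats. The SD within chromosomes, 8.23 in XX and 13.2 in XO cells, was 5.41 and 5.94 at rows with under 3 CpGs within 50 bp. These causes were not tested beyond the fewer rows or blocks each setting uses. No paired analysis was possible because there was 1 library per karyotype. The depth behind a row, and so the precision of a value over few rows, is unknown.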

Other observations

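Promoters inside CpG-poor blocks could be read in part. No row lay within 1 kb of 1622 of their 2220 protein-coding starts (73.1%), compared with 4695 of 18484 starts (25.4%) in blocks over 250 rows. The 424 promoters with at least 10 rows had a median of 7.29% in XX and 8.97% in XO cells, close to the 6.98% and 8.19% of 11621 promoters in blocks over 250 rows. More than 20% methylation in XO cells was found at 75 of the 424 (17.7%) and at 1476 of the 11621 (12.7%). The 34 blocks under 50 rows had 33.1% ± 9.99 in XX and 57.8% ± 12.6 in XO cells and kept 57.3%, and at isolated rows, in 22 of them, 38.7% and 63.6% with 60.9% kept.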
